A study of Mus musculus with 24 samples.

Results

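The 10 genes described here are Pdgfra, Pdgfrb, Tcf21, Npnt, Inmt, Pi16, Scara5, Dcn, Lum and Cthrc1, symbols that mark the fibroblasts and pericytes of the mouse lung. They were picked by their symbols as genes known to mark these cells, at a time when earlier results of these data were known. Each matched a single gene of the 78275 in the count table by its Ensembl identifier. All 10 were among the 17490 genes that passed the filter on low counts. The study sequenced poly(A) RNA from the lungs of male C57BL/6 mice aged 20 weeks and asks what remote ischemic conditioning and the antifibrotic drug pirfenidone (PFD) do in lungs exposed to diesel exhaust (DE), a model of pulmonary fibrosis. There are 8 groups of 3 libraries. C is healthy and untreated. RIC is healthy and conditioned, with 3 rounds of 5 min of ischemia and 5 min of reperfusion in the left leg on 3 days a week over 4 weeks. The remaining 6 groups, DE, DE+PFD, RIC+DE, DE+RIC, RIC+DE+PFD and DE+PFD+RIC, inhaled exhaust for 30 min a day, 5 days a week, over roughly 8 weeks. Conditioning came before the exposure in RIC+DE and RIC+DE+PFD, and fell within the exposure in DE+RIC and DE+PFD+RIC. Pirfenidone was dosed by mouth at 300 mg/kg daily on 6 days of the week in 0.5% carboxymethylcellulose, and no label names a group on that carrier alone. The labels give each library a batch, a date in March (9 libraries), October (14) or November (1). All RIC+DE libraries carry the March date and all DE libraries the October date. DE+RIC has 2 October libraries and the November one, and the other 5 groups mix March and October.

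Lung fibroblasts build and repair the connective tissue of the alveolar wall and of the sheaths around airways and vessels. Alveolar fibroblasts carry the receptor gene Pdgfra and the transcription factor gene Tcf21, adventitial fibroblasts carry Pi16 and Scara5, and pericytes wrap capillaries and carry Pdgfrb. The platelet-derived growth factors that these receptors bind drive mesenchymal cells to divide and migrate, and Cthrc1 marks fibroblasts that appear in fibrotic lung and make much collagen. In whole-lung RNA, fewer cells of a type and less RNA per cell cannot be told apart.

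Levels are CPM, a gene's counts as a share of the library's total after trimmed mean (TMM) scaling. Total counts were 12224106 to 16925635 in March, 3906807 to 11298160 in October and 18494156 in the November library. Several defining markers of the lists used for context were detected in every library. Sftpc of the alveolar epithelium was at 6988 to 68172 CPM and Ces1d of alveolar fibroblasts at 497.2 to 999.3. Dpt of adventitial fibroblasts was at 114.4 to 205.9 CPM and Cspg4 of pericytes at 8.87 to 49.3. Acta1, the defining marker of skeletal muscle, fell to 0 CPM in C, DE, DE+RIC and DE+PFD+RIC. There were 4 libraries that stood apart. RIC+DE+PFD 1 had the lowest scaling factor (0.638, against 0.922 to 1.16 in the others), held 39.6% of its counts in its 100 highest genes and had the highest Sftpc. DE 1 had the highest summed adipocyte genes, 1914 CPM. RIC+DE 1 had the highest sums of skeletal muscle genes, 2155 CPM, and cardiac muscle genes, 3610 CPM. RIC+DE 3 had a skeletal muscle sum of 1071 CPM, where the libraries other than these RIC+DE ones held 5.21 to 40.1. Nothing in the labels says that the libraries of a group come from separate mice, so the p-values below measure the spread between these libraries.

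Per kilobase of exon, Inmt was the most abundant of the 10 transcripts and Scara5 the least. The median over the 24 libraries was 1422 CPM per kb for Inmt and 103.2 for Npnt. It was 54.7 CPM per kb for Tcf21, 36.4 for Dcn, 22.9 for Pdgfrb and 20.6 for Pdgfra. It was 7.83 CPM per kb for Pi16, 3.59 for Lum, 2.68 for Cthrc1 and 2.40 for Scara5. Npnt and Dcn varied least, with 2.79-fold and 2.85-fold between the lowest and the highest library. Lum varied most, from 3.09 CPM in RIC+DE 2 to 46.4 CPM in RIC+DE 1, a 15.0-fold range that lies within a single group. Scara5 came next at 8.18-fold, from 7.45 CPM in RIC+DE+PFD 1 to 61.0 CPM in RIC+DE 1. The extremes clustered in few libraries: RIC+DE 1 held the highest Pi16, Scara5, Dcn and Lum and the lowest Tcf21 and Inmt, while RIC+DE+PFD 1 held the highest Tcf21, Inmt and Cthrc1 and the lowest Pdgfra, Pdgfrb, Npnt and Scara5. With the groups in order of their mean, the libraries of neighbouring groups overlapped in all 7 neighbouring pairs of all 10 genes. The means of neighbours were further apart than the sum of their SDs only for Cthrc1 between DE+PFD+RIC and RIC+DE.

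**Figure D1:**
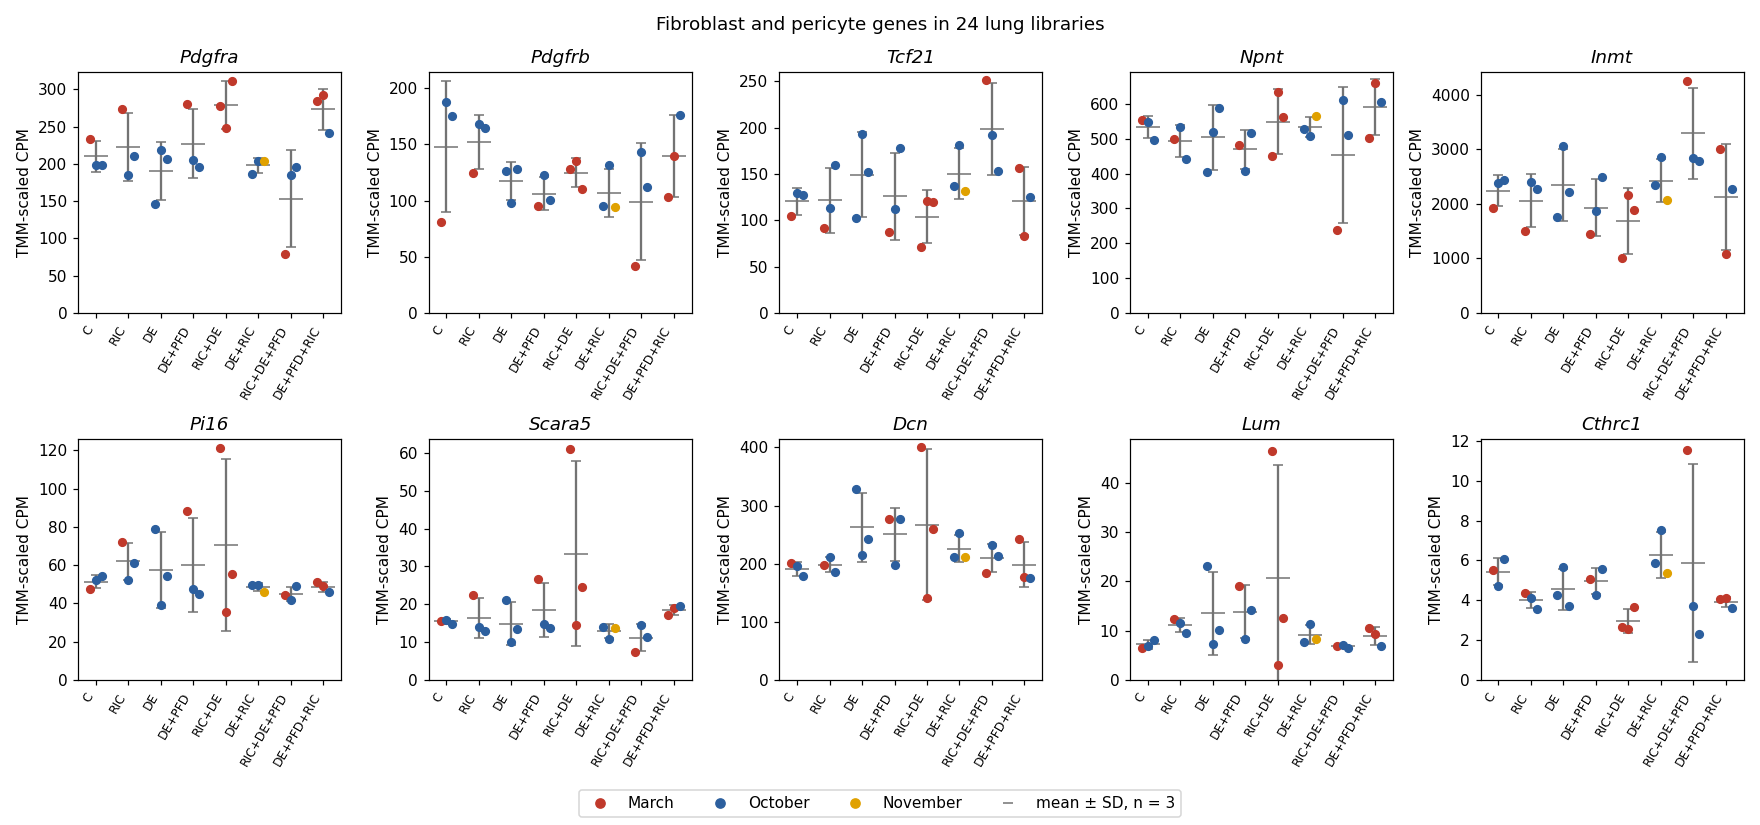
TMM-scaled CPM (linear axes from 0) of the 10 genes in each of the 24 libraries, by group, with the mean and SD of the 3 libraries in grey and the batch date as colour; the SD bar of Lum in RIC+DE is cut off at 0. The single high library of RIC+DE sets the group's Lum, Scara5 and Pi16 means, and the low library of RIC+DE+PFD sets that group's Pdgfra, Pdgfrb and Npnt means.

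None of the 10 genes passed the test in any comparison of groups. The test was edgeR's quasi-likelihood test with terms for group and batch, called at a Benjamini-Hochberg adjusted p under 0.05. In each of the 7 pairwise and 3 pooled comparisons, and in the test of any difference among the 8 groups, 0 of the 10 and 0% of the 17490 genes were called. At an unadjusted p under 0.05, the genes past were 0 of 10 for DE against C (3.33% of all genes), 0 for RIC against C (1.2%), 0 for DE+PFD against DE (2.84%) and 0 for DE+RIC against DE (3.23%). They were 2 of 10 for RIC+DE against DE (17.3% of all genes), Pdgfrb on the higher side (7.82% of genes) and Cthrc1 on the lower (9.47%). There were 0 for RIC+DE+PFD against DE (9.52%) and 1 for DE+PFD+RIC against DE (9.23%). Of the pooled comparisons, exposed against unexposed groups had 1 of 10 (3.02%), pirfenidone against none within the exposed groups 0 (4.3%) and conditioning against none within the exposed groups 0 (6.7%). Any difference among the 8 groups had 2 of 10, against 14.4% of all genes. The libraries of the groups compared did not overlap for 1 of 10 genes in DE against C (14.5% of all genes), 2 in RIC against C (4.91%), 0 in DE+PFD against DE (11.2%) and 0 in DE+RIC against DE (12.3%). They did not overlap for 2 of 10 in RIC+DE against DE (41.6%), 1 in RIC+DE+PFD against DE (12%) and 1 in DE+PFD+RIC against DE (28.2%). DESeq2 called 0 of the 10 in the pairwise and pooled comparisons and 1, Pdgfrb, among the 8 groups, where it called 6.52% of all genes. The 5 treated groups are all set against the same DE libraries, so their values share those libraries. The values of DE+RIC rest on its 2 October libraries, because the November date holds 1 library alone.

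**Figure D2:**
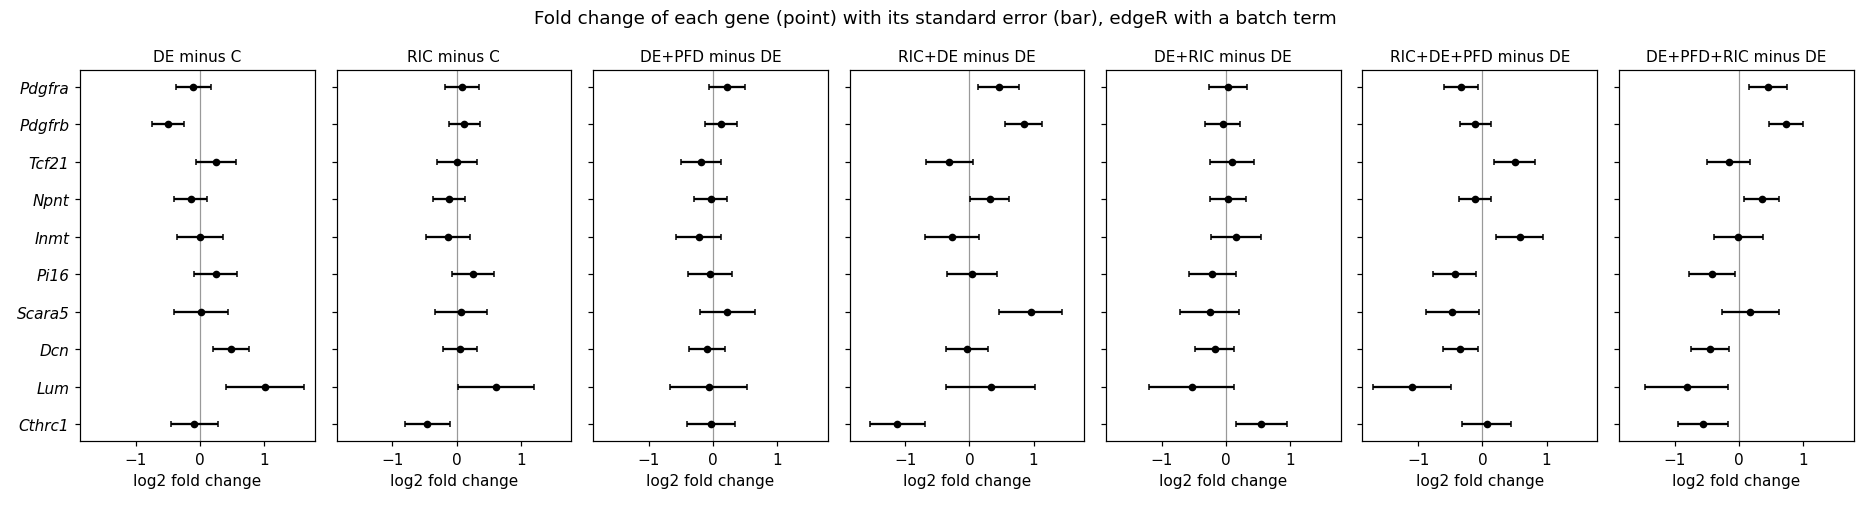
Log2 fold change of each gene (points) with its standard error (bars) in the 7 pairwise comparisons, from edgeR with a batch term. The largest are Cthrc1 in RIC+DE against DE at -1.12, Lum in RIC+DE+PFD against DE at -1.09 and Lum in DE against C at 1.02, and none passes the test after adjustment.

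Pdgfrb (ENSMUSG00000024620.13), the receptor of pericytes and other mural cells, had the smallest p of the 10 in 6 of these 11 tests, and its values followed the batch date. In C it was at 80.9, 187.6 and 175.4 CPM, in RIC at 124.7, 167.9 and 164.5, and in DE at 126.5, 97.9 and 128.1. In DE+PFD it was at 95.3, 122.5 and 100.5 CPM, in RIC+DE at 128.5, 135.2 and 110.5, and in DE+RIC at 95.2, 131.5 and 94.0. It was at 41.8, 143.2 and 112.3 CPM in RIC+DE+PFD and at 103.1, 139.9 and 175.9 in DE+PFD+RIC. The highest libraries were the October ones of C and the October one of DE+PFD+RIC, and the lowest were RIC+DE+PFD 1 and C 1, both from March. In all 5 groups that hold both dates, every March library was below every October library, which 1.4% of all genes showed. The log2 difference of March against October, adjusted for group, was -0.76 ± 0.17 (SE, adjusted p = 0.0768, edgeR), where 0.00572% of genes passed. DESeq2 put it at -0.75 with an adjusted p of 0.00191, calling 3.6% of genes. Without RIC+DE+PFD 1 it was -0.55 in edgeR with an adjusted p of 0.0175, and 13.2% of all genes then passed for the date.

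The same dates enter the group comparisons of Pdgfrb. RIC+DE against DE gave a log2 fold change of 0.84 ± 0.29 (SE, unadjusted p = 0.00945, adjusted p = 0.274, edgeR). The 3 and 3 libraries overlapped, their means were 124.7 ± 12.8 and 117.5 ± 16.99 CPM (SD, n = 3), and with no batch term the value was 0.09. All libraries of the first group are from March and all of the second from October, so the fitted value rests on the date difference seen in the other groups. DE+PFD+RIC against DE gave 0.74 ± 0.27 (adjusted p = 0.526, edgeR) and 0.25 with no batch term. In the October libraries alone it was 0.56, a value that rests on 1 library of DE+PFD+RIC, at 175.9 CPM, against the 3 of DE. DE against C gave -0.50 ± 0.25 (adjusted p = 0.988, edgeR), and -0.62 in October alone. The 6 exposed groups against the 2 unexposed ones gave -0.31 ± 0.14 (unadjusted p = 0.0387, adjusted p = 1, edgeR). DE+PFD, DE+RIC and RIC+DE+PFD against DE gave 0.12 ± 0.25, -0.05 ± 0.27 and -0.11 ± 0.24.

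Pdgfra (ENSMUSG00000029231.16), a receptor gene carried by alveolar fibroblasts, had March libraries on the higher side. It was at 277.7, 247.9 and 311.9 CPM in RIC+DE, at 284.9, 293.1 and 241.3 in DE+PFD+RIC and at 146.5, 218.8 and 206.7 in DE. In C it was at 233.7, 198.3 and 197.9 CPM, in RIC at 273.8, 184.8 and 211.1, and in DE+PFD at 280.3, 205.7 and 195.9. DE+RIC held 186.4, 204.2 and 204.2 CPM and RIC+DE+PFD 78.4, 185.3 and 195.7. The March libraries lay above the October ones in 4 of the 5 mixed groups, a pattern of at least 4 groups that 11.4% of all genes showed, and below them in RIC+DE+PFD. The log2 difference by date was 0.09 ± 0.18 (adjusted p = 0.859, edgeR) and became 0.38 (adjusted p = 0.0193, edgeR) without RIC+DE+PFD 1. All 3 libraries of RIC+DE and all 3 of DE+PFD+RIC were above all 3 of DE. Of all genes, 21% and 15.4% were higher with no overlap in those comparisons. The fitted values were 0.46 ± 0.32 (adjusted p = 0.426) and 0.45 ± 0.29 (adjusted p = 0.547, edgeR), and were 0.04 and 0.11 when RIC+DE+PFD 1 and DE 1 were left out. By date, long transcripts were relatively higher in March: the rank correlation of a library's deviation with exon length, over 16269 genes, was 0.181 to 0.465 in 8 March libraries, -0.549 in RIC+DE+PFD 1 and -0.307 to 0.286 in October. The exons of Pdgfra, the longest of the 10, sum to 10024 bases and those of Pdgfrb to 5478. The part of length in the date difference was not tested.

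**Figure D3:**
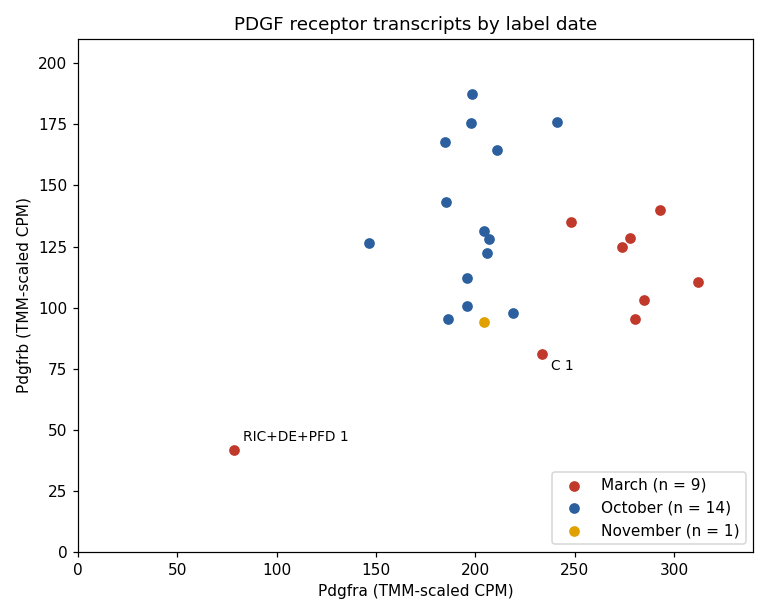
Pdgfrb against Pdgfra (TMM-scaled CPM, linear axes from 0), one point per library, coloured by batch date. March libraries other than RIC+DE+PFD 1 sit at 233.7 CPM of Pdgfra or above, and October libraries at 241.3 or below; March libraries reach 139.9 CPM of Pdgfrb and October libraries 187.6.

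The genes of the 4 ligands of these receptors, Pdgfa, Pdgfb, Pdgfc and Pdgfd, were read beside them. None was called in any comparison. At an unadjusted p under 0.05 were Pdgfc in RIC+DE against DE (0.88 ± 0.40, adjusted p = 0.283, edgeR) and Pdgfb in exposed against unexposed groups (-0.30 ± 0.11, adjusted p = 1, edgeR). By date, March against October, Pdgfb gave -0.36 ± 0.13 (adjusted p = 0.189, edgeR). Pdgfc was at 8.66, 3.47 and 3.32 CPM in RIC+DE and at 2.74, 1.94 and 3.52 in DE, so 1 library held most of the difference. The other ligands did not share that direction: 1 of the 4 lay above 0 and 3 below in RIC+DE against DE, with a median of -0.03. Pdgfa was at 96.7 to 139.3 CPM in RIC+DE and at 152.8 to 202.1 in DE, lower with no overlap like 20.6% of all genes. The sum of the 4 was 241.2 to 296.1 CPM in RIC+DE and 355.0 to 386.0 in DE. Of the 9 other pericyte genes, 6 lay above 0 in RIC+DE against DE, with a median log2 fold change of 0.79, and 3 had an unadjusted p under 0.05, as did 17.3% of all genes. These were Notch3 (1.51 ± 0.45), the receptor that mural cells need to mature, Cspg4 (1.25 ± 0.40), which encodes the NG2 proteoglycan, and Lamc3 (1.34 ± 0.45), a laminin chain gene, each with an adjusted p of 0.274 in edgeR. Notch3 was at 144.1, 147.6 and 127.3 CPM in RIC+DE and at 72.3, 44.5 and 68.6 in DE, higher with no overlap like 21% of all genes. Other genes of the list lay the opposite way: Cox4i2, a subunit gene of cytochrome c oxidase, was at 32.9, 64.4 and 41.6 CPM in RIC+DE and at 69.4, 70.3 and 81.4 in DE, lower with no overlap (20.6% of all genes), with a fitted value of -0.44 ± 0.44 (adjusted p = 0.58, edgeR). Kcnj8 and Higd1b gave -0.22 ± 0.26 and -0.36 ± 0.44. RIC+DE holds March libraries alone and DE October ones alone, so the fitted values of this comparison rest on the batch term. The part of exon length in them was not tested. Notch3, Cspg4 and Lamc3 had an unadjusted p under 0.05 in DE+PFD+RIC against DE (9.23% of all genes), at 1.20 ± 0.41, 0.81 ± 0.37 and 0.88 ± 0.41 (adjusted p = 0.526, edgeR). In RIC+DE+PFD against DE, Higd1b gave 1.03 ± 0.39 and Rgs5 -1.37 ± 0.63 (adjusted p = 0.459 and 0.513, edgeR), in opposite directions. By date, March against October, Cspg4 gave -0.62 ± 0.23 (adjusted p = 0.214, edgeR).

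Among the genes of alveolar fibroblasts, Tcf21 and Inmt varied together over the libraries more closely than any other pair of the 10. Tcf21 (ENSMUSG00000045680.9) encodes a basic helix-loop-helix transcription factor of the lung mesenchyme and Inmt (ENSMUSG00000003477.6) an enzyme that methylates small amines such as tryptamine. Proteins of the Tcf21 class bind short palindromes called E-boxes, of which CAGCTG is one. The RefSeq promoters of build GRCm38.p6, from 250 bases before the start to 50 after it, held 5 of the 10 genes. They are shown for Tcf21 and Inmt, the pair that varied together, and for Pi16, which went against them, 5′ to 3′ on the strand of the gene, with letters in capitals where a searched word lies on either strand. The words in capitals are the E-box CAGCTG, the TATA box word TATAAA, and the GC box word GGGCGG.
Tcf21, chr10:22820094-22820393, minus strand: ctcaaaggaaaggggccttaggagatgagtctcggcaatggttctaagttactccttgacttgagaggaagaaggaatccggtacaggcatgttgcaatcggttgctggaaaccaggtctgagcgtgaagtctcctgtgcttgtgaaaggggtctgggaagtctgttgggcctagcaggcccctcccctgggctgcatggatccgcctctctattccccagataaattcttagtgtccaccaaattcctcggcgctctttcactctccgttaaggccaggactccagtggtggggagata
Inmt, chr6:55174941-55175240, minus strand: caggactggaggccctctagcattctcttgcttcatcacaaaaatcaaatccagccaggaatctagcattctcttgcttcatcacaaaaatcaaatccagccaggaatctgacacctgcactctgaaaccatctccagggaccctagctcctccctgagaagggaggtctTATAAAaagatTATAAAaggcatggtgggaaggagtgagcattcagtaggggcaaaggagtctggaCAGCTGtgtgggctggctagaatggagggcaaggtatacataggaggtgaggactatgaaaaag
Pi16, chr17:29318632-29318931, plus strand: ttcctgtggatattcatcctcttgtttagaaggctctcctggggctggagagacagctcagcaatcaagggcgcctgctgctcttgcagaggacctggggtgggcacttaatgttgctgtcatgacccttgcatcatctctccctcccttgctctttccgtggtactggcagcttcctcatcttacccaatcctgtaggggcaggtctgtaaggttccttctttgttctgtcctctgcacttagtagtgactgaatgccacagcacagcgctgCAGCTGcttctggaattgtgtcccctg
The Inmt window held 1 CAGCTG and 2 TATAAA, the Pi16 window held 1 CAGCTG, and the Tcf21 window held none of the 3 words. CCAAT was searched as well and lay once in the Pi16 window, left in lower case. No match overlapped another. Of 32851 promoters of this length, 16.3% held the E-box, 13.6% the TATA box word, 35.7% the GC box word and 37.4% CCAAT. A match describes the letters and is no evidence that a factor binds there.

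Tcf21 was at 104.1, 129.5 and 127.3 CPM in C and at 102.4, 193.5 and 152.1 in DE. It was at 70.6, 121.2 and 120.1 CPM in RIC+DE and at 251.3, 191.8 and 153.3 in RIC+DE+PFD, the groups with the lowest and the highest mean. Inmt had the same groups at its ends, with 1006, 2151 and 1893 CPM in RIC+DE and 4253, 2832 and 2777 in RIC+DE+PFD. In C, Inmt was at 1918, 2375 and 2429 CPM and in DE at 1752, 3050 and 2209, and both genes overlapped between DE and every group set against it. The log2 fold changes of RIC+DE+PFD against DE were 0.50 ± 0.32 for Tcf21 (adjusted p = 0.579) and 0.58 ± 0.37 for Inmt (adjusted p = 0.574, edgeR), and without RIC+DE+PFD 1 they were 0.20 and 0.25. In RIC+DE against DE they were -0.31 ± 0.37 and -0.27 ± 0.42 (adjusted p = 0.646 and 0.735, edgeR), and without RIC+DE 1 the value of Inmt was -0.01. The summed genes of the lung epithelium were at 26716 to 45859 CPM in RIC+DE and 58108 to 96203 in DE. In RIC+DE+PFD they were at 243874 CPM in library 1 and at 73606 and 71451 in the others, within the range of DE. Over the 24 libraries the epithelial sum had a Pearson r of 0.827 with Tcf21 and 0.813 with Inmt (both permutation p = 1e-05, the smallest the permutations can give, adjusted 0.0004 over 80 relations). Spearman rho was 0.792 and 0.754 (permutation p = 2e-05 and 4e-05, both adjusted 0.00107). Within March r was 0.895 and 0.852, within October 0.651 and 0.517, and without RIC+DE+PFD 1 and RIC+DE 1 0.732 and 0.68. Other genes were related to it too. Scara5 had an r of -0.838 and a rho of -0.76 (permutation p = 2e-05 and 3e-05, adjusted 0.00053 and 0.00107), with r of -0.848 in March, -0.764 in October and -0.746 without the same pair. Pdgfra had -0.8 and -0.602 (permutation p = 4e-05 and 0.00241, adjusted 0.0008 and 0.0321), but r was 0.0292 in October. Cthrc1 had 0.73 and 0.557 (permutation p = 0.00023 and 0.0056, adjusted 0.00263 and 0.0498), with 0.42 in October and 0.449 without the pair. Pdgfrb had -0.625 and -0.409 (permutation p = 0.00524 and 0.0492, adjusted 0.0323 and 0.188). So 6 of the 10 genes passed by r with the epithelial sum, and 17 of all 80 relations did. The share of all genes that would pass with these sums was not computed, so the counts cannot be called particular to the 10. With the summed endothelial genes 3 passed by r and 0 by rho. These were Npnt (r = 0.743, adjusted 0.0037), Pdgfra (0.639, adjusted 0.0286) and Pdgfrb (0.612, adjusted 0.0319, permutation test). Without RIC+DE+PFD 1 and DE 1 their r was 0.339, 0.0563 and 0.356. The part of epithelial or endothelial RNA in the levels of these genes was not tested.

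Npnt (ENSMUSG00000040998.19) encodes nephronectin, a matrix protein of basement membranes that binds integrin alpha 8 beta 1. Its levels were even, from 403.7 to 661.3 CPM in 23 libraries, with 236.7 CPM in RIC+DE+PFD 1. The 8 group means lay between 453.3 ± 194.0 CPM in RIC+DE+PFD and 590.1 ± 80.4 in DE+PFD+RIC (SD, n = 3). Its fitted values ran from -0.15 ± 0.26 in DE against C to 0.36 ± 0.28 in DE+PFD+RIC against DE, with an adjusted p of 0.847 among the 8 groups in edgeR. Of the 8 other alveolar fibroblast genes, none was called. Fgfr4, a fibroblast growth factor receptor, had an unadjusted p under 0.05 in RIC+DE against DE (0.79 ± 0.31, adjusted p = 0.274) and in DE+PFD+RIC against DE (0.91 ± 0.28, adjusted p = 0.526, edgeR). By date Fgfr4 gave -0.51 ± 0.17 (adjusted p = 0.176, edgeR), and its levels in RIC+DE, 31.6, 52.1 and 49.2 CPM, overlapped those of DE, 35.0, 35.2 and 39.7.

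Pi16 (ENSMUSG00000024011.18), a peptidase inhibitor gene that marks adventitial fibroblasts, was level in most groups and high in single libraries. It was at 47.4, 52.5 and 54.3 CPM in C, at 72.0, 52.5 and 61.4 in RIC and at 79.1, 39.3 and 54.1 in DE. In DE+PFD it was at 88.5, 47.4 and 44.8 CPM and in RIC+DE at 121.2, 35.3 and 55.2. The other 3 groups lay between 41.8 and 51.0 CPM. Library 1 was the highest in 4 of these groups, RIC, DE, DE+PFD and RIC+DE, and the groups overlapped. The log2 fold change of RIC+DE against DE was 0.04 ± 0.39 (adjusted p = 0.966, edgeR), and -0.61 without RIC+DE 1. Against DE, RIC+DE+PFD gave -0.43 ± 0.34 (adjusted p = 0.641) and DE+PFD+RIC -0.41 ± 0.36 (adjusted p = 0.618, edgeR), which became -0.13 and -0.12 without DE 1.

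Scara5 (ENSMUSG00000022032.15), a scavenger receptor gene of adventitial fibroblasts that takes up ferritin, showed the same single library. It was at 61.0, 14.4 and 24.6 CPM in RIC+DE, at 21.1, 10.0 and 13.4 in DE and at 15.7, 15.95 and 14.8 in C. DE+PFD held 26.6, 14.7 and 13.8 CPM and RIC 22.5, 13.9 and 12.9. DE+RIC held 14.1, 10.9 and 13.8, RIC+DE+PFD 7.45, 14.6 and 11.3, and DE+PFD+RIC 17.1, 19.1 and 19.5 CPM. RIC+DE against DE gave 0.95 ± 0.49 (unadjusted p = 0.0642, adjusted p = 0.304, edgeR), and 0.18 without RIC+DE 1. Of the 8 other adventitial genes, 3 lay above and 5 below 0 in RIC+DE against DE, with a median of -0.14. Dpt, which encodes the matrix protein dermatopontin, was at -0.46 ± 0.21 and Gli1, a hedgehog pathway transcription factor gene, at 0.75 ± 0.33, both with an adjusted p of 0.278 in edgeR. The summed adventitial list was 719.2, 669.1 and 694.0 CPM in RIC+DE and 749.5, 802.5 and 860.7 in DE, a sum carried mostly by Pcolce2, Clec3b and Dpt. Of the other genes of the list, Col14a1 and Col15a1, both collagen genes, were also at their highest of the 24 libraries in RIC+DE 1, at 79.7 and 30.7 CPM, and Serpinf1 was at its second highest, 60.2 CPM. In RIC+DE+PFD against DE, Clec3b (0.59 ± 0.20, adjusted p = 0.405) and Pcolce2 (0.53 ± 0.22, adjusted p = 0.477, edgeR) had the smallest p of the list.

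Dcn (ENSMUSG00000019929.17) and Lum (ENSMUSG00000036446.6) encode decorin and lumican, small leucine-rich proteoglycans that bind collagen fibrils and set their diameter. Dcn was at 201.1, 195.4 and 178.0 CPM in C and at 329.3, 215.4 and 243.3 in DE. All 3 DE libraries were above all 3 of C, the sole non-overlap among the 10 genes in DE against C, where 7.6% of all genes were higher in this way. The log2 fold change was 0.48 ± 0.28 (unadjusted p = 0.102, adjusted p = 0.988, edgeR), 0.28 without DE 1 and 0.50 in the October libraries alone. DE+PFD held 277.6, 196.9 and 276.6 CPM, RIC+DE 401.3, 140.8 and 260.1, and DE+RIC 212.1, 252.7 and 211.9. RIC held 197.4, 212.3 and 186.2 CPM, RIC+DE+PFD 184.0, 232.2 and 213.6, and DE+PFD+RIC 242.9, 177.6 and 175.4. RIC overlapped C and the 5 treated groups overlapped DE, and the fitted values of the latter against DE lay between -0.45 ± 0.30 in DE+PFD+RIC and -0.04 ± 0.33 in RIC+DE. The 6 exposed groups against C and RIC gave 0.27 ± 0.16 (unadjusted p = 0.111, adjusted p = 1, edgeR).

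Lum followed Dcn at a lower level and with wider spread. It was at 6.57, 6.89 and 8.12 CPM in C, at 12.3, 11.5 and 9.50 in RIC and at 23.1, 7.32 and 10.2 in DE. It was at 19.1, 8.29 and 14.3 CPM in DE+PFD, at 46.4, 3.09 and 12.6 in RIC+DE and at 7.73, 11.3 and 8.31 in DE+RIC. RIC+DE+PFD held 6.81, 7.09 and 6.46 CPM, the narrowest range of the 8 groups, and DE+PFD+RIC 10.4, 9.25 and 6.97. All 3 RIC libraries were above all 3 of C, where 2.24% of all genes were higher with no overlap, with a log2 fold change of 0.62 ± 0.59 (adjusted p = 1, edgeR). All 3 RIC+DE+PFD libraries were below all 3 of DE, where 6.41% of all genes were lower with no overlap, with -1.09 ± 0.61 (unadjusted p = 0.0883, adjusted p = 0.549, edgeR). That value was -0.45 without DE 1. With no filter on low counts, edgeR called it at -1.12 (adjusted p = 0.0212), together with 0.839% of the 41345 genes then tested. DE against C gave 1.02 ± 0.60 (adjusted p = 0.988, edgeR), and 0.37 without DE 1. RIC+DE against DE gave 0.33 ± 0.69 (adjusted p = 0.81, edgeR), and -1.06 without RIC+DE 1. Of the 9 other small leucine-rich proteoglycans on the list, 7 were tested and none was called or had an unadjusted p under 0.05 in a comparison of groups. In exposed lungs, pirfenidone against none gave Lum at -0.59 ± 0.36 (unadjusted p = 0.113, adjusted p = 0.956, edgeR), and -0.13 without RIC+DE 1. The summed level of these other proteoglycans, mostly Bgn (biglycan), was 1482 to 1772 CPM in DE and 1552 to 1649 in C.

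The libraries with high Dcn and Lum were also those with high adipocyte genes. The sum of the 9 adipocyte genes was 102.2 to 219.1 CPM in C, 1914, 248.8 and 513.5 in DE, 623.6, 322.6 and 401.2 in DE+PFD, and 1145, 93.3 and 249.2 in RIC+DE. It was 138.5 to 296.8 CPM in RIC, 97.1 to 171.6 in DE+RIC, 139.2 to 388.2 in RIC+DE+PFD and 122.1 to 442.7 in DE+PFD+RIC. Adipoq, the defining adipocyte marker, was detected in all libraries at 6.64 to 196.8 CPM. In DE against C, 9 of the 9 genes lay above 0 with a median log2 fold change of 2.39, 8 had an unadjusted p under 0.05 (3.33% of all genes did) and none was called. Across the 24 libraries the log2 adipocyte sum had a Pearson r of 0.741 with Dcn (permutation p = 8e-05, adjusted 0.00107 over 80 relations) and 0.745 with Lum (permutation p = 5e-05, adjusted 0.0008). Spearman rho was 0.603 (permutation p = 0.00223, adjusted 0.0321) and 0.583 (permutation p = 0.00317, adjusted 0.0362). Within March r was 0.847 and 0.792, within October 0.666 and 0.806, and without DE 1 and RIC+DE 1, the libraries farthest from the median, 0.535 and 0.554. For Pi16 r was 0.627 (permutation p = 0.00176, adjusted 0.0156) with rho of 0.389 (permutation p = 0.0619, adjusted 0.19), and r was 0.34 without the same pair, so it rests on those libraries. For Scara5 r was 0.403 (permutation p = 0.0528, adjusted 0.132) and rho 0.176 (permutation p = 0.409, adjusted 0.609). Skeletal muscle genes summed to 2155 CPM in RIC+DE 1 and 1071 in RIC+DE 3, where DE libraries held 20.2 to 40.1. Scara5, Dcn and Lum had an r of 0.638, 0.574 and 0.606 with that sum (all adjusted 0.0334, permutation test), but no rho passed. Without RIC+DE 1 and 3 their r was -0.141, 0.201 and 0.285, so these relations rest on those libraries. Scara5 had an r of 0.571 with the cardiac muscle sum (permutation p = 0.00524, adjusted 0.0323), 0.353 without RIC+DE 1 and C 1. The part of adipose or muscle RNA in the levels of the 4 genes was not tested.

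**Figure D4:**
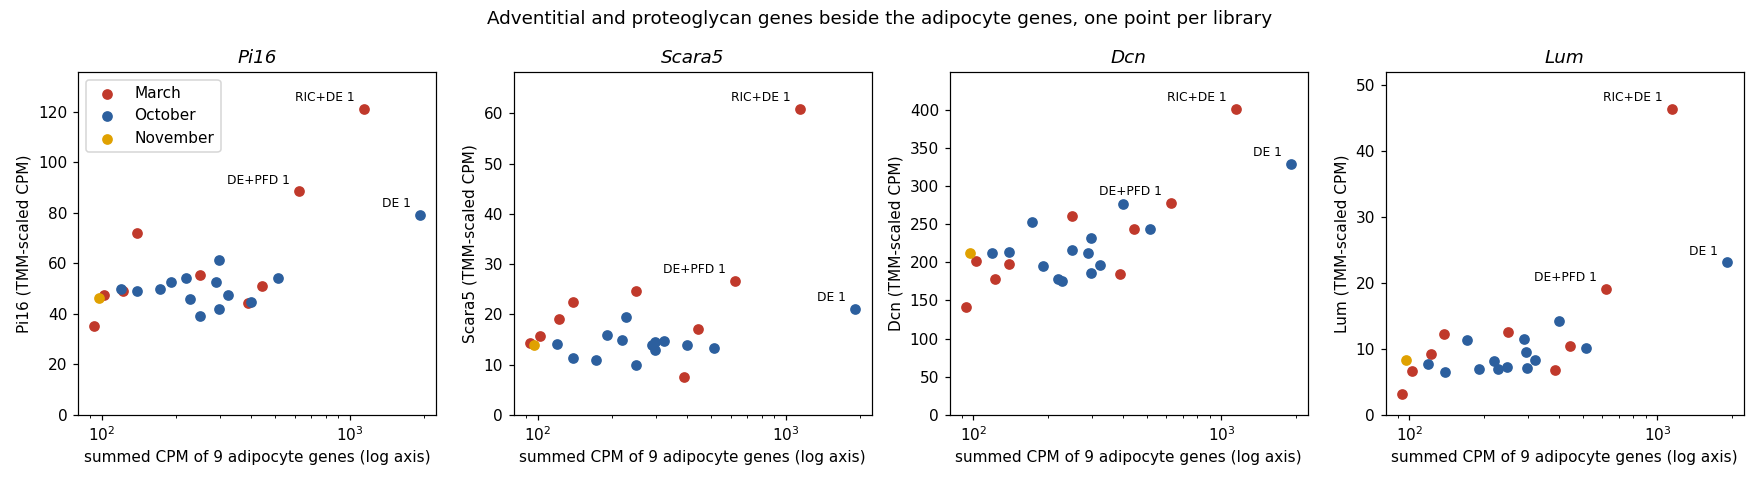
Pi16, Scara5, Dcn and Lum (TMM-scaled CPM, linear axes from 0) against the summed CPM of 9 adipocyte genes (log axis), one point per library coloured by batch date. The libraries with the highest sums, DE 1 at 1914, RIC+DE 1 at 1145 and DE+PFD 1 at 623.6 CPM, are also the 3 highest for Lum, Dcn and Pi16.

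Cthrc1 (ENSMUSG00000054196.8), the marker of collagen-making fibroblasts in fibrotic lung, was scarce, at 16 to 103 counts per library. It was at 5.52, 4.71 and 6.06 CPM in C, at 4.36, 4.09 and 3.56 in RIC and at 4.27, 5.67 and 3.69 in DE. DE overlapped C, with a log2 fold change of -0.09 ± 0.36 (adjusted p = 0.995, edgeR). It was at 2.65, 2.56 and 3.64 CPM in RIC+DE, below all 3 libraries of DE, and at 5.88, 7.55 and 5.35 in DE+RIC. DE+PFD held 5.07, 4.28 and 5.55 CPM, DE+PFD+RIC 4.05, 4.09 and 3.60, and RIC+DE+PFD 11.6, 3.73 and 2.31, the last group spanning both the highest and the lowest library of the 24. RIC+DE against DE gave -1.12 ± 0.43 (unadjusted p = 0.0167, adjusted p = 0.274, edgeR), -0.72 without RIC+DE+PFD 1 and -0.62 with no batch term. In that comparison 20.6% of all genes were lower with no overlap. RIC against C also had no overlap (2.67% of all genes lower in this way), with -0.46 ± 0.35 (adjusted p = 1, edgeR). DE+RIC and DE+PFD+RIC against DE gave 0.55 ± 0.39 and -0.56 ± 0.39 (adjusted p = 1 and 0.559, edgeR). The date difference of Cthrc1 was 0.50 ± 0.23 (adjusted p = 0.324, edgeR), and 0.12 without RIC+DE+PFD 1.

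Of the 10 other genes listed for fibrotic fibroblasts, 9 were tested; Lrrc15 was at 0 in 12 of the 24 libraries and did not pass the filter. In DE against C, 7 of the 9 lay above 0 with a median log2 fold change of 0.11, and none was called. Grem1, which encodes an antagonist of bone morphogenetic proteins, gave 2.83 ± 0.90 and Adam12, a metalloprotease gene, 1.19 ± 0.49, both with an adjusted p of 0.988 in edgeR. Grem1 was at 7.12, 0.746 and 3.87 CPM in DE and at 0.682, 0.725 and 0.541 in C, and Adam12 at 11.3, 1.64 and 5.63 in DE and at 1.36, 3.63 and 3.14 in C. DE 2 was near or within the range of C for both genes, and DE 1 was the highest of the 3. In RIC+DE+PFD against DE, 7 of the 9 lay below 0 with a median of -0.68, and 4 had an unadjusted p under 0.05, as did 9.52% of all genes. These were Adam12 (-1.67 ± 0.52), Tnc (-1.38 ± 0.46), Fap (-1.51 ± 0.60) and Grem1 (-1.81 ± 0.83), with adjusted p of 0.354, 0.385, 0.466 and 0.513 in edgeR. Tnc encodes tenascin C, a matrix protein of wound repair, and was at 2.18, 10.2 and 11.1 CPM in RIC+DE+PFD and at 29.2, 10.6 and 23.4 in DE. The sum of the 10 listed genes was 427.1, 1006 and 1010 CPM in RIC+DE+PFD and 848.2 to 1303 in DE. Against the same DE libraries, Grem1 gave -2.16 ± 0.98 in DE+RIC and -2.26 ± 0.94 in DE+PFD+RIC. Adam12 gave -1.225 ± 0.542 in DE+PFD+RIC. Each had an unadjusted p under 0.05 in edgeR, as did 3.23% of all genes in DE+RIC and 9.23% in DE+PFD+RIC. In DE+RIC 1 of the 9 lay above 0 and 8 below, and in DE+PFD+RIC 5 and 4. Other genes of the list lay higher against DE: Ltbp2 gave 1.32 ± 0.46 and Sfrp1 0.78 ± 0.32 in RIC+DE (both adjusted p = 0.274), and Ltbp2 0.97 ± 0.42 in DE+PFD+RIC (adjusted p = 0.526, edgeR). In exposed against unexposed groups the collagen gene Col1a1 was at -0.50 ± 0.22 and Sfrp1, a secreted Wnt antagonist gene, at 0.35 ± 0.16 (both adjusted p = 1, edgeR). Conditioning against none in the exposed groups had 3 of the 9 at an unadjusted p under 0.05 (6.7% of all genes). These were Adam12 (-0.91 ± 0.32), Fap (-0.76 ± 0.35) and Grem1 (-1.12 ± 0.53), with adjusted p of 0.675, 0.733 and 0.741 in edgeR. Of the 9, 4 lay above 0 and 5 below.

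The 10 genes fell into blocks that varied together over the libraries. Of the 45 pairs, 22 passed by Pearson r of log2 CPM over 24 libraries, 10 positive and 12 negative, and 6 by Spearman rho. Each was adjusted over the 45 pairs from 100000 permutations. The share of pairs of other genes that would pass was not computed, so these counts cannot be called particular to the 10 genes. The permutations moved all 24 libraries freely, regardless of group and batch. Their p can be too small where libraries of a group or date are alike. The closest pair was Tcf21 and Inmt, with r = 0.933 and rho = 0.905 (permutation p = 1e-05 for both, the smallest these permutations can give). Its r was 0.976 in March, 0.813 in October and 0.891 without the 2 libraries farthest from the median of Tcf21. Both ran against Scara5. For Tcf21 r was -0.82 and rho -0.806 (permutation p = 1e-05 for both), with -0.826 in March, -0.711 in October and -0.739 without the 2 farthest libraries. For Inmt r was -0.83 (permutation p = 1e-05) and rho -0.724 (permutation p = 0.00012), with -0.814, -0.74 and -0.827 in the same order. The exons of Tcf21 and Inmt sum to 2349 and 1600 bases and those of Scara5 to 6093. Those of Pi16, Dcn and Lum sum to 6364, 5838 and 2448. The rank correlation of deviation with exon length was 0.376 to 0.465 in RIC+DE and -0.549 in RIC+DE+PFD 1. The part of length in the relations between the 10 genes was not tested.

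The second block held the proteoglycans and Pi16. Dcn and Lum had r = 0.888 (permutation p = 1e-05, adjusted 9e-05) and rho = 0.695 (permutation p = 0.00021, adjusted 0.00189), with r of 0.942 in March, 0.798 in October and 0.771 without RIC+DE 1 and DE 1. Pi16 and Lum had r = 0.88 (permutation p = 1e-05) and rho = 0.69 (permutation p = 0.00021). Their r was 0.959 in March, 0.657 in October and 0.754 without RIC+DE 1 and DE+PFD 1. Pi16 and Dcn were less close, with r = 0.691 (permutation p = 0.00043, adjusted 0.00242) and a rho that did not pass (0.416, permutation p = 0.045, adjusted 0.133). That r was 0.874 in March, 0.334 in October and 0.437 without RIC+DE 1 and DE+PFD 1. Pi16 and Scara5, the adventitial pair, had r = 0.786 (permutation p = 4e-05) and rho = 0.532 (permutation p = 0.00821, adjusted 0.0528), with 0.845 in March, 0.51 in October and 0.498 without RIC+DE 1 and DE+PFD 1. Dcn and Scara5 had r = 0.561 (permutation p = 0.00669, adjusted 0.0197) and rho = 0.161 (permutation p = 0.45), but r of 0.0979 in October and 0.212 without RIC+DE 1 and RIC+DE+PFD 1, so that relation rests on those libraries.

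The relations of the receptors differed between dates or rested on few libraries. Pdgfra and Npnt had r = 0.709 (permutation p = 0.00398, adjusted 0.0138) and rho = 0.224 (permutation p = 0.291), with r of 0.883 in March, 0.417 in October and 0.252 without RIC+DE+PFD 1 and RIC+DE 3. Pdgfrb and Npnt had r = 0.589 (permutation p = 0.0156, adjusted 0.0369) and rho = 0.227 (permutation p = 0.284), with r of 0.865 in March, 0.16 in October and 0.13 without RIC+DE+PFD 1 and C 1. Both relations rest on those libraries. Pdgfra and Scara5, the sixth pair to pass by rho (0.549, permutation p = 0.00618, adjusted 0.0464), had r = 0.612 (permutation p = 0.00951, adjusted 0.0238), with 0.694 in March, -0.357 in October and 0.476 without RIC+DE+PFD 1 and RIC+DE 3. Pdgfra and Tcf21, both carried by alveolar fibroblasts, had r = -0.6 (permutation p = 0.00165, adjusted 0.00675) and rho = -0.452 (permutation p = 0.028, adjusted 0.114). That r was -0.775 in March, 0.359 in October and -0.452 without the same pair of libraries. Cthrc1 was negative with Pdgfrb at r = -0.55 (permutation p = 0.00872, adjusted 0.0231) and rho = -0.41 (permutation p = 0.0473, adjusted 0.133), and r became -0.18 without RIC+DE+PFD 1 and C 1.

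**Figure D5:**
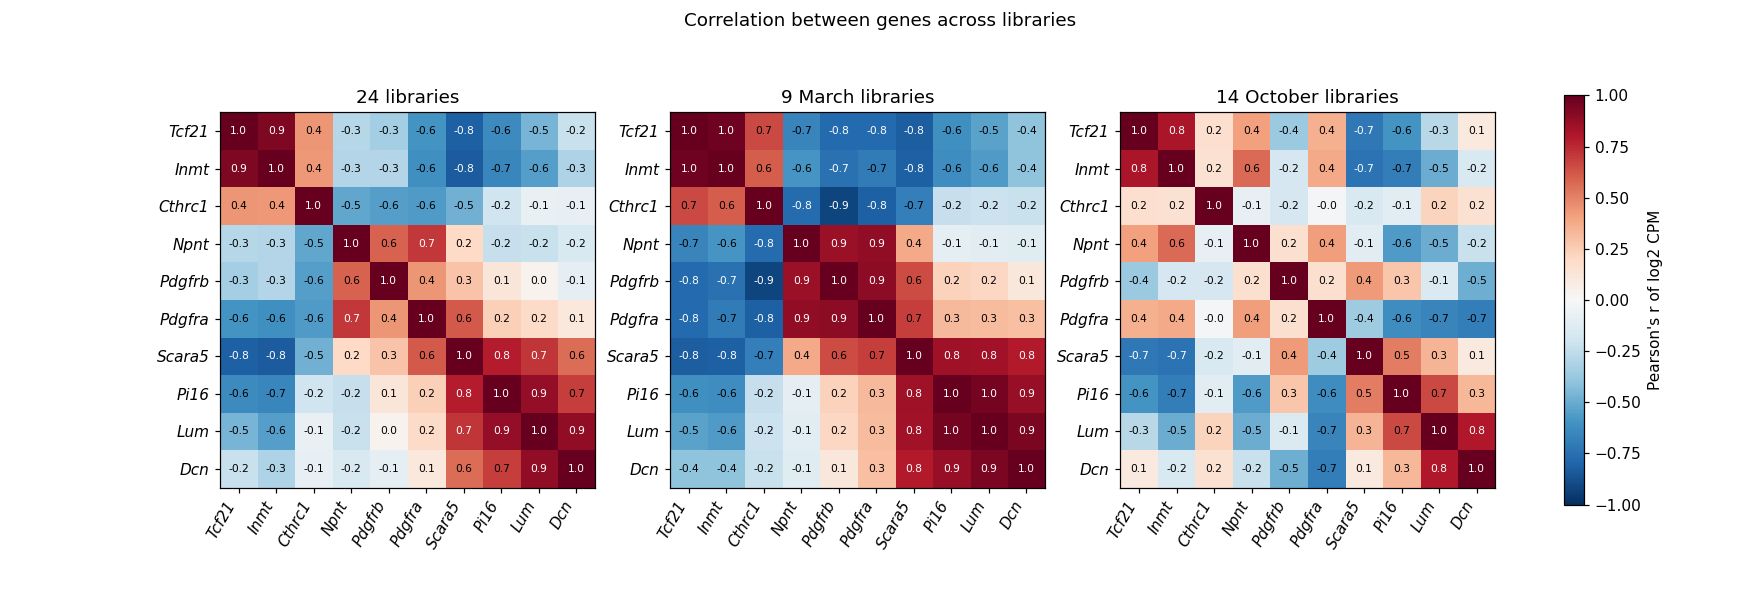
Pearson's r of log2 CPM between the 10 genes in all 24, the 9 March and the 14 October libraries (colour scale from -1 to 1, each cell printed to 1 decimal). Tcf21 with Inmt, and Pi16 with Lum, keep a positive r in all 3 panels, while Pdgfra with Scara5 is positive in March and negative in October.

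Over all 14253 named genes searched, those closest to each of the 10 by Spearman rho over the 24 libraries are given as a description. Inmt was closest to Ppp2cb (0.932) and Fdx1 (0.91), and Tcf21 to Fdx1 (0.909) and Inmt (0.905). Lum was closest to Ntrk2 (0.908), a neurotrophin receptor gene, and Ptger3 (0.812), a prostaglandin E2 receptor gene. Pdgfra was closest to Nbea (0.897) and Sec24a (0.871), Pdgfrb to Git1 (0.857) and Smtn (0.848), a smooth muscle gene. Scara5 was closest to Sesn3 (0.854) and Dock8 (0.85), and Npnt to Ndst1 (0.85) and Calcoco1 (0.825). Pi16 was closest to Kcnab1 and Ntrk3 (0.799 each), Dcn to Cyp2a5 (0.782) and Krt17 (0.736), and Cthrc1 to Fbxo36 (0.836) and Tctex1d4 (0.796). Of these 19 different genes, Inmt alone is itself one of the 10. The libraries share batch and scaling, which bear on every one of these values.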

How the data were processed

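Poly(A) RNA of the lung went into libraries by a strand-specific protocol, per the labels' protocols. The submitters' pipeline used FastQC 0.12.1, fastp 0.23.4, STAR 2.7.11b (genome GRCm39) and featureCounts, and the notes also name R 4.4.1 and DESeq2, per the submitters' processing notes. Values are raw read counts, 1 whole number per gene and library, as deposited by the authors. The annotation release and the strand setting of the counting step are not given in the sources used for this text. The counts were mapped to symbols and exon lengths by identifier through an annotation of GRCm38 (51486 of 78275 genes), used for names and lengths only.

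In R 4.3.3, edgeR 4.0.16 fitted all 24 libraries with group and batch terms after its filter on low counts (17490 genes) and TMM scaling, with Benjamini-Hochberg adjustment over all genes tested and a threshold of 0.05. The November library has a batch term of its own, so DE+RIC values rest on 2 libraries. Log2 CPM used a prior count of 2 for correlations, whose p came from 100000 permutations, two-sided. These permutations, of pairs of members and of members with marker sums, did not keep group or batch. Sums of marker lists had 0.5 added before logs.

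The members and lists were chosen with earlier results of these data known. Genes named beyond the 10 are those of smallest p in each list and comparison, of which a part is printed, and the 2 genes nearest each member. Cox4i2, Kcnj8, Higd1b in RIC+DE, Pdgfa in RIC+DE, Col14a1, Col15a1 and Serpinf1 were named after their values were seen. Results were recomputed with DESeq2 1.42.0, with that tool's scaling inside edgeR, without the filter, without a batch term, with the November library counted as October, in October libraries alone where both groups had them, with the replicate number as a block, without RIC+DE+PFD 1 and DE 1, and without each library in turn. Correlations of members with marker sums, and the March and October values within groups, were added after the values were seen. The edgeR step was tested on simulated counts.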

Additional observations from a re-analysis of the deposited data

Results flagged for a closer look

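For 7 of the 10 genes, the same kind of treatment went in opposite directions in different groups, with every library of one group on one side of its reference mean and every library of the other on the opposite side. Of all 17490 genes tested, 56.2% met the same criterion at least once, so the count is not particular to these genes. The differences between these effects were not tested. Values are log2 ratios of group mean CPM with no batch term. Preconditioning went with Pdgfra at 0.55 in RIC+DE against DE and at -0.569 in RIC+DE+PFD against DE+PFD. In the same contrasts Tcf21 was at -0.522 and 0.66, and Inmt at -0.474 and 0.768. Conditioning in healthy lungs, RIC against C, went with Pi16 at 0.269 and Lum at 0.629, and RIC+DE+PFD against DE+PFD with -0.417 and -1.03. Perconditioning went with Cthrc1 at 0.462 in DE+RIC against DE and at -0.343 in DE+PFD+RIC against DE+PFD. Pirfenidone went with Pdgfra at 0.253 in DE+PFD against DE and 0.462 in DE+PFD+RIC against DE+RIC, but at -0.866 in RIC+DE+PFD against RIC+DE. Scara5 was at -1.59 in RIC+DE+PFD against RIC+DE and at 0.523 in DE+PFD+RIC against DE+RIC. RIC+DE against DE sets March libraries against October ones, and every contrast of RIC+DE+PFD holds RIC+DE+PFD 1, the library with the lowest Pdgfra and Scara5 and the highest Tcf21 and Inmt. Leaving out 1 library moved several values by over 1.5 times. Without RIC+DE 1, Scara5 was at -0.814 in RIC+DE+PFD against RIC+DE, and in RIC+DE against DE Tcf21 was at -0.307 and Inmt at -0.209; without DE 2 the latter were at -0.291 and -0.235. Without RIC+DE+PFD 1, Pdgfra was at -0.255 against DE+PFD and -0.551 against RIC+DE. In DE+PFD against DE, Pdgfra was at 0.0745 without DE+PFD 1 and 0.0952 without DE 1. In RIC+DE+PFD against DE+PFD, Pi16 was at -0.0309 without DE+PFD 1 and Tcf21 at 0.993 without DE+PFD 3. Pi16 was at 0.147 in RIC against C without RIC 1, and Cthrc1 at 0.306 in DE+RIC against DE without DE+RIC 2.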

How the results depend on the processing

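The count of genes called, over all genes, depended on the tool and filter. It is 0 for each comparison of groups in the reported fit. DESeq2 called 17 genes for DE against C, 2 for RIC against C, 15 for DE+PFD, 80 for RIC+DE, 13 for DE+RIC, 69 for RIC+DE+PFD and 17 for DE+PFD+RIC, each against DE. It called 2 for exposure, 3 for pirfenidone, 15 for conditioning, 1073 for any difference among the 8 groups (1 of the 10 genes, Pdgfrb, adjusted p = 0.035) and 535 for the date (1 of the 10, Pdgfrb). With no filter edgeR called, in the same order, 199, 63, 180, 1129, 229, 347 (1 of the 10, Lum), 306, 114, 200, 267, 2792 (3 of the 10, Pdgfrb, Scara5 and Lum) and 317 (1 of the 10, Pdgfrb). With no batch term, 102 genes were called for RIC+DE, 3 for DE+RIC, 9 for RIC+DE+PFD, 8 for DE+PFD+RIC and 94 among the 8 groups. With the November library in October there were 2 for DE+RIC, 4 among the groups and 13 for the date, and in October libraries alone 1 for DE+RIC and 41 for RIC+DE+PFD. DE+PFD+RIC has a single October library, so no October count is given for it. Without RIC+DE+PFD 1 and DE 1 the date had 2477 genes, 2 of the 10 among them. The cause of these shifts was not tested. The replicate block with the batch term called 16 genes for RIC+DE, 18 among the 8 groups and 0 for the date, and none of the 10; replicate numbers did not pair the libraries (median correlation of same-numbered deviations within a batch 0.0103). Leaving out each library gave 0 to 16 genes for DE against C, 0 to 13 for DE+PFD, 0 to 54 for RIC+DE, 0 to 14 for DE+RIC, 0 to 36 for RIC+DE+PFD, 0 to 19 for DE+PFD+RIC, 0 to 5 for pirfenidone, 0 to 12 for conditioning, 0 to 84 among the groups and 0 to 2317 for the date, the last with 0 to 2 of the 10. Among fold changes of the 10 genes, 3453 values under alternatives kept their side of the threshold and 7 crossed it, as given above for Lum, Pdgfra and Pdgfrb. The count of correlated pairs was 17 with CPM by library total, 22 with a prior count of 0.5, 15 without RIC+DE+PFD 1 and DE 1, and 15 to 23 with each library left out. Cthrc1, at 16 to 103 counts per library, is the most limited by depth.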
